A study of Mus musculus with 18 samples.

Results

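Cytochrome P450 family 4 (Cyp4) enzymes of the mouse liver are described here through 10 genes, Cyp4a10, Cyp4a12a, Cyp4a12b, Cyp4a14, Cyp4a31, Cyp4a32, Cyp4f13, Cyp4f14, Cyp4f15 and Cyp4v3. They were taken by gene symbol from the deposited table of 35441 genes, and all 10 were among the 14533 genes with over 100 reads summed over the 18 libraries, the genes that were tested. The other 10 Cyp4 genes that were looked up and found in the table were used for comparison, and 6 of them were tested.

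RNA-seq was made from whole livers of wild-type mice (WT), of mice that lack lysosomal acid lipase (Lipa-/-) and of Lipa-/- mice treated with rAAV8.hAAT.LIPA (rAAV8-treated Lipa-/-), with n = 3 per group, 12- and 34-weeks post-injection, which the labels give as 3 and 8 months. Lysosomal acid lipase frees fatty acids and cholesterol from the lipids taken into lysosomes. The Lipa-/- mice lacked exon 4 of Lipa in all tissues on a C57BL/6N background, and the WT mice were littermates. The vector was given intravenously to young adult mice and carried human LIPA under the hAAT promoter, which is active in hepatocytes. It adds a gene and repairs none, so all cells of the treated livers keep the deletion. According to the paper, hepatocytes secrete the enzyme into the blood, from where it can also act in other cells. According to the methods the mice were male. Only 1 untreated Lipa-/- mouse was still alive at 34 weeks, and the others had been killed at an ethical endpoint. Some of the 3 libraries labelled untreated Lipa-/- at 34 weeks can therefore come from mice killed earlier, and the labels do not mark which. All mice of 34 weeks carried 1 study code and those of 12 weeks another, except Lipa-/- mouse 5 of 12 weeks, which carried a different code again, so time and code cannot be told apart. Each sample is labelled as a separate mouse.

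Cyp4 enzymes sit in the endoplasmic reticulum and add a hydroxyl group to the far (omega) end of a fatty acid chain, with electrons from the P450 reductase Por. Alcohol and aldehyde dehydrogenases then turn the product into a dicarboxylic acid, which is shortened in peroxisomes. Omega-oxidation is a side route next to mitochondrial beta-oxidation, and in rodent liver Cyp4a10 and Cyp4a14 are textbook targets of the fatty acid receptor PPARalpha. Cyp4a12a and Cyp4a12b are known as male-predominant genes, while Cyp4f enzymes act on leukotrienes and vitamin E, and Cyp4v3 is the mouse counterpart of the human retinal disease gene CYP4V2.

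The 6 Cyp4a members lie in 1 cluster on chromosome 4 (GRCm39), from the start of Cyp4a12a at 115156243 to the end of Cyp4a32 at 115479704. The 3 Cyp4f members lie on chromosome 17, with Cyp4f15 at 32904421 to 32922640, Cyp4f14 at 33120541 to 33136561 and Cyp4f13 at 33140972 to 33166434, and Cyp4v3 lies alone on chromosome 8 at 45757972 to 45786330. Some neighbours are near copies. The coding sequences of Cyp4a12a and Cyp4a12b matched at 98.5% of 1524 bases and those of Cyp4a10 and Cyp4a31 at 96.6% of 1527 bases (GENCODE annotation of GRCm39). The 120 coding bases of exon 6 in which Cyp4a12a and Cyp4a12b differed most, bases 644 to 763 of each coding sequence, are shown to make visible how little separates the reads of the pair, with differing bases in capitals. They lie on the plus strand at chr4:115183839-115183958 and chr4:115290092-115290211.
Cyp4a12a: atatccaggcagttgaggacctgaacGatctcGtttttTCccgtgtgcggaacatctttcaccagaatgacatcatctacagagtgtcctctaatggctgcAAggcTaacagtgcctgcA
Cyp4a12b: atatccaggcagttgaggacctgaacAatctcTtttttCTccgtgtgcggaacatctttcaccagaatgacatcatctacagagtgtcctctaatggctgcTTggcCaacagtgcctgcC
For Cyp4a10 and Cyp4a31 the corresponding stretch is in exon 1, bases 23 to 142 of the coding sequences, on the plus strand at chr4:115375541-115375660 and chr4:115420936-115421055.
Cyp4a10: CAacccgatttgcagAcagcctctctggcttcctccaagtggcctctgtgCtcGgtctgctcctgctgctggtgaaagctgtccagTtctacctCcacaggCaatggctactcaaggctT
Cyp4a31: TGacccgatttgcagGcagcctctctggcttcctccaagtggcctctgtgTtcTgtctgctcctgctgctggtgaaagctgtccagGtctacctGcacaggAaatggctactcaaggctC
Of all 31-base words in its reference transcript, Cyp4a12a shared 62.4% with transcripts of other Cyp4 genes, Cyp4a32 61.4%, Cyp4a10 54.8% and Cyp4a31 31.5%, against 2.06% for Cyp4a14, 3.26% for Cyp4f14 and 0 for Cyp4v3. How Salmon divided reads within the pair and within the trio is therefore uncertain, and their sums are given beside the single genes.

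The libraries held 17527824 to 25833059 assigned reads, and a floor of 3 reads corresponded to 0.0946 to 0.291 CPM, the TMM-scaled read share that serves as level of a gene between livers. Murine Lipa stood at 202 to 323 CPM in the WT livers and at 16.7 to 37.0 CPM in all Lipa-/- livers, and the human LIPA transcript stood at 523 to 2746 CPM in the treated livers and at no more than 0.906 CPM in the others. The library of Lipa-/- mouse 4 at 34 weeks held 0 reads of the Y-linked genes Ddx3y and Eif2s3y, where the other 17 libraries held 961 to 1803 and 633 to 1366, which goes against the male sex that the methods give, so the members' comparisons that rest on this library are also given without it. The treated livers of 12 weeks had the lowest TMM factors, 0.587, 0.759 and 0.627 in mice 10, 11 and 12, against 0.806 to 1.69 in all other groups. Treated mouse 10 of 12 weeks also had the lowest depth. In treated mouse 12 at 34 weeks the neutrophil markers summed to 2258 TPM, against 6.14 and 12.3 TPM in the other treated livers of that time. Its human LIPA level was 523 CPM, against 1316 and 2746 CPM in those livers. Among these 3 livers it had the lowest level of Cyp4a10, Cyp4a12a, Cyp4a12b, Cyp4a32, Cyp4f13 and Cyp4v3, but not of Cyp4a14, Cyp4a31, Cyp4f14 or Cyp4f15. The part of the neutrophils or of the transgene level was not tested. All 10 hepatocyte markers were detected in every group. The macrophage markers summed to 2613 to 5138 TPM (read share corrected for transcript length) in the untreated Lipa-/- livers and to 62.5 to 378 TPM in the other livers. In whole liver, fewer cells of a type and less RNA per cell cannot be told apart.

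The first question was how the family stood in Lipa-/- liver. A gene was called when its log2 fold change exceeded 1 in size with an adjusted p under 0.05 over all tested genes (edgeR). At 12 weeks 8 of the 10 members fell and none rose in Lipa-/- livers, while 9.06% of all tested genes were called lower and 20.2% higher. At 34 weeks 9 of the 10 fell and none rose, against 15.7% called lower and 20.5% called higher among all genes. The median log2 fold change of the members was -1.85 at 12 weeks and -3.24 at 34 weeks, and that of all tested genes 0.018 and -0.027. Cyp4a31 was called at neither time, and Cyp4f13 at 34 weeks alone. Without mouse 4, 8 members fell at 34 weeks, with log2 fold changes of -7.28 for Cyp4a10, -12.41 for Cyp4a14, -3.30 for Cyp4a32, -2.77 for Cyp4f14, -1.65 for Cyp4f15 and -1.85 for Cyp4v3.

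**Figure D1:**
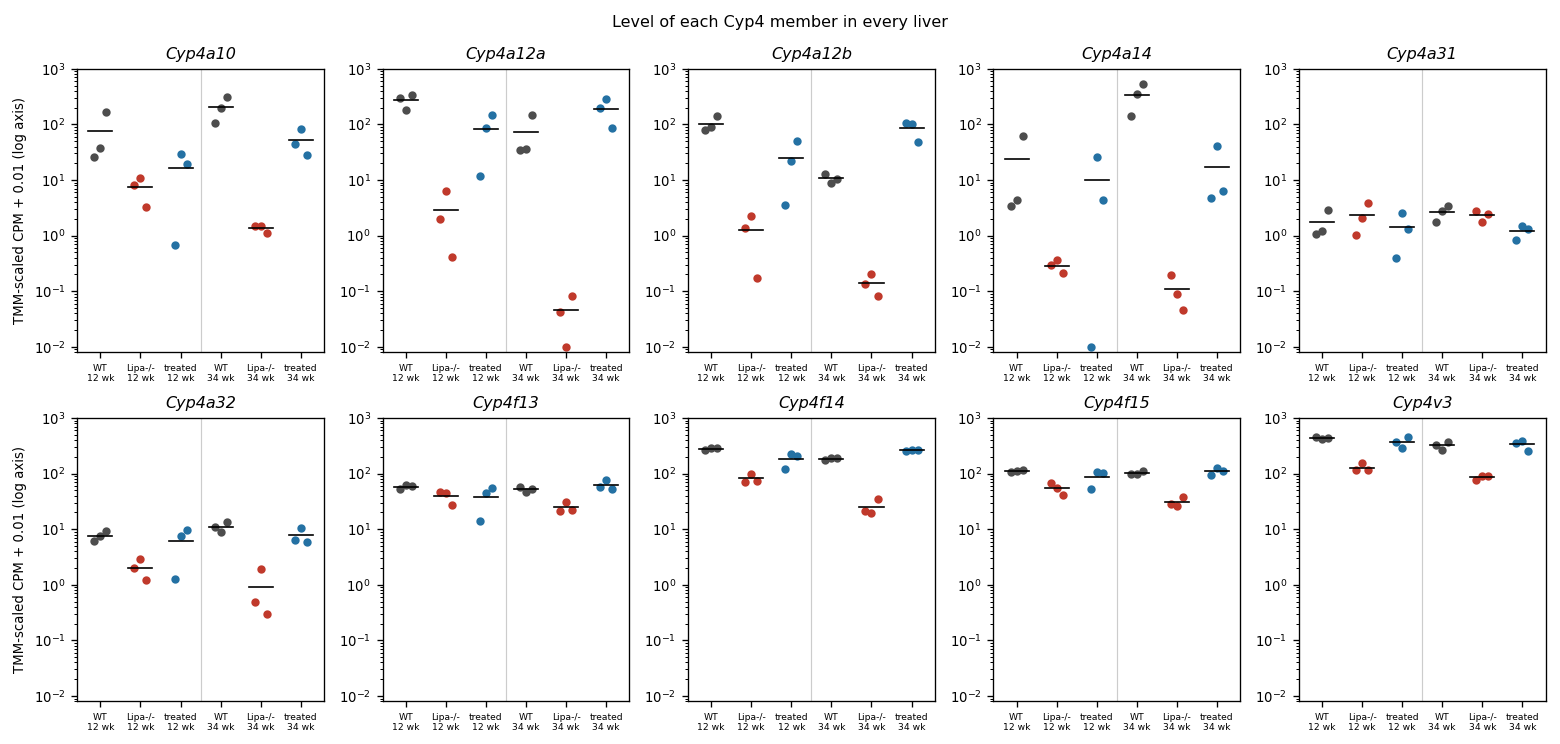
Level of each member in every liver, as TMM-scaled CPM plus 0.01 on a log axis, by group and weeks post-injection; points are mice and lines are group means (n = 3). At both times every untreated Lipa-/- liver lay below every WT liver for 9 of the members, and the groups overlapped for Cyp4a31. The share of all tested genes that lay fully apart between these groups was not counted.

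The male-predominant pair fell at both times. Cyp4a12a, the main arachidonic acid omega-hydroxylase of male mice, stood at 296, 184 and 332 CPM in the WT livers of 12 weeks and at 1.99, 6.29 and 0.404 CPM in the Lipa-/- livers. At 34 weeks WT livers held 34.9, 35.8 and 150 CPM, whereas the 3 Lipa-/- libraries held 1, 0 and 2 reads. No Lipa-/- liver came near a WT liver. The log2 fold change was -6.54 ± 1.03 (SE, n = 3; adjusted p = 9.71e-05) at 12 weeks and -10.81 ± 1.43 (adjusted p = 1.27e-05) at 34 weeks. The latter rests on a prior count, and the 3 reads against 5355 in WT gave, per scaled library, 0.0449% of the WT level (exact 95% Poisson interval 0.00926 to 0.131%, counting error only).

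Cyp4a12b, its near copy, stood at 78.3, 88.4 and 139 CPM in WT and at 1.35, 2.21 and 0.162 CPM in Lipa-/- livers at 12 weeks. At 34 weeks it stood at 12.6, 8.83 and 10.5 CPM in WT and at 4, 5 and 2 reads in Lipa-/- livers. Both differences passed the test, at -6.35 ± 0.83 (adjusted p = 1.61e-05) and -6.29 ± 0.96 (adjusted p = 5.03e-05). With the reads of the pair summed the log2 fold changes were -6.49 and -8.95, both called, so the pair as a whole fell. In WT livers most of these reads were assigned to Cyp4a12a. The sum therefore cannot show whether the separate call of Cyp4a12b depended on how the reads were divided. Without mouse 4 at 34 weeks, whose sex mark differed, the values were -10.73 for Cyp4a12a and -6.27 for Cyp4a12b, both called.

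Cyp4a14 and Cyp4a10, the PPARalpha-responsive omega-hydroxylases, also fell at both times. Cyp4a14 stood at 3.38, 4.35 and 62.6 CPM in WT livers at 12 weeks and at 143, 354 and 522 CPM at 34 weeks. The 6 Lipa-/- libraries held 1 to 9 reads of it each. WT livers varied widely and Lipa-/- livers were all near the floor of 3 reads. The log2 fold change was -6.36 ± 1.56 (adjusted p = 0.00394) at 12 weeks and -11.58 ± 1.89 (adjusted p = 9.66e-05) at 34 weeks, and -3.77 at 12 weeks without WT mouse 3, the mouse with the highest level. Summed reads gave 0.0291% of the WT level at 34 weeks (0.0133 to 0.0552%).

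Cyp4a10 stood at 25.5, 37.1 and 165 CPM in WT and at 8.16, 11.0 and 3.23 CPM in Lipa-/- livers at 12 weeks, and at 107, 198 and 306 CPM against 1.45, 1.51 and 1.10 CPM at 34 weeks. The log2 fold change was -3.35 ± 0.89 (adjusted p = 0.00672) and -7.23 ± 1.08 (adjusted p = 4.18e-05). WT mouse 3 was again the highest at 12 weeks, and without it the change of Cyp4a10 was -2.07 (adjusted p = 0.0597) and the number of members that fell at 12 weeks dropped from 8 to 5.

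The less abundant neighbours differed from each other. Cyp4a32 stood at 6.11 to 9.32 CPM in WT and 1.21 to 2.87 CPM in Lipa-/- livers at 12 weeks, and at 8.95 to 13.2 against 0.294 to 1.93 CPM at 34 weeks. Its log2 fold changes were -1.92 ± 0.61 (adjusted p = 0.0193) and -3.62 ± 0.66 (adjusted p = 2.64e-04). The call at 12 weeks was lost without Lipa-/- mouse 5, the mouse of the other study code (-1.90, adjusted p = 0.0520), Lipa-/- mouse 9 (-1.66) or WT mouse 3 (-1.75). Cyp4a31 stood at 1.07 to 2.88 CPM in WT and 0.994 to 3.80 CPM in Lipa-/- livers at 12 weeks, and at 1.71 to 3.35 and 1.74 to 2.71 CPM at 34 weeks. Its groups overlapped at both times, with log2 fold changes of 0.42 ± 0.56 and -0.18 ± 0.55 (adjusted p = 0.590 and 0.810). Its sequence is 96.6% that of Cyp4a10, so reads of the trio may be shared, and the log2 fold change of their sum was -2.86 at 12 weeks and -5.58 at 34 weeks, both called.

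Changes of the Cyp4f members and of Cyp4v3 were smaller than those of Cyp4a10, Cyp4a12a, Cyp4a12b and Cyp4a14. In WT livers the replicates of the former also lay closer together on the log2 scale. In Lipa-/- livers this did not hold throughout, with an SD at 34 weeks of 0.230 for Cyp4a10 and 0.466 for Cyp4f14. Cyp4f14, which hydroxylates vitamin E and leukotriene B4, stood at 271, 290 and 285 CPM in WT and at 70.7, 99.5 and 75.0 CPM in Lipa-/- livers at 12 weeks, and at 179, 189 and 192 against 21.7, 19.3 and 35.5 CPM at 34 weeks. Its log2 fold changes were -1.79 ± 0.25 (adjusted p = 3.66e-05) and -2.87 ± 0.26 (adjusted p = 4.13e-07). Cyp4v3, a fatty acid omega-hydroxylase, stood at 454, 414 and 445 CPM in WT and at 116, 153 and 117 CPM in Lipa-/- livers at 12 weeks, and at 330, 271 and 377 against 75.4, 90.7 and 89.6 CPM at 34 weeks. Its log2 fold changes were -1.77 ± 0.23 (adjusted p = 1.59e-05) and -1.94 ± 0.23 (adjusted p = 4.84e-06).

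Cyp4f15, another leukotriene omega-hydroxylase of the same cluster, stood at 107 to 116 CPM in WT and 40.9 to 66.5 CPM in Lipa-/- livers at 12 weeks, and at 96.6 to 109 against 26.05 to 38.7 CPM at 34 weeks. Its log2 fold changes were -1.02 ± 0.25 (adjusted p = 0.00389) and -1.71 ± 0.26 (adjusted p = 4.23e-05). At 12 weeks the change lay at the fold threshold, and it was not called without Lipa-/- mouse 9 (-0.86), without WT mouse 3 (-0.99) or under scaling to total counts (-0.56).

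Cyp4f13 depended on the measure. In CPM it stood at 53.4 to 61.5 in WT and 27.0 to 47.4 in Lipa-/- livers at 12 weeks, and at 46.8 to 57.2 against 21.3 to 30.96 at 34 weeks, with log2 fold changes of -0.56 ± 0.35 (adjusted p = 0.221) and -1.07 ± 0.35 (adjusted p = 0.0194). TPM divides by transcript length and does not use the TMM factors. In TPM its mean was 37.8 ± 4.93 (SD) in WT and 53.8 ± 23.2 in Lipa-/- livers at 12 weeks, and 39.9 ± 8.37 against 45.5 ± 9.13 at 34 weeks. The 2 scales therefore pointed in opposite directions, and they differ in length and in library scaling. In limma on log2 TPM the median log2 fold change of all tested genes was 0.30 at 12 weeks and 0.46 at 34 weeks. On counts corrected for transcript length the change was 0.045 at 12 weeks and -0.46 at 34 weeks, neither called. The call at 34 weeks was also lost without Lipa-/- mouse 4 (-0.97, adjusted p = 0.0753), Lipa-/- mouse 6 (adjusted p = 0.0616) or WT mouse 1 (adjusted p = 0.05002).

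The deposited mean effective length of the Cyp4f13 transcripts, which shortens as reads are assigned to shorter transcripts, was 1279 to 1366 bases in WT and 677 to 1067 bases in Lipa-/- livers at 12 weeks, and 1253 to 1367 against 790 to 940 bases at 34 weeks. Treated livers stood at 743 to 1121 bases at 12 weeks and at 1195 to 1364 bases at 34 weeks, so that WT and treated livers overlapped only at the later time. GENCODE, an annotation that can hold other transcripts than the Ensembl set used for the deposited lengths, lists 37 transcripts of the gene, of 424 to 5943 bases. Averaged over both times, the difference of Lipa-/- from WT livers was -433 bases (exact permutation within time points, two-sided p = 0.005, the smallest it can give), and that of treated livers -223 bases (exact p = 0.03). Over the 20 such tests of all members the adjusted p values were 0.1 and 0.3, neither below 0.05, and the test was chosen after the lengths were seen. Cyp4f14 and Cyp4f15 kept lengths of 1771 to 1866 and 1732 to 1870 bases in all livers. The length of Cyp4a31 varied as widely as that of Cyp4f13. Its mean difference from WT was 413 bases in Lipa-/- and -450 bases in treated livers (exact p = 0.14 and 0.26 in the same permutation test).

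**Figure D2:**
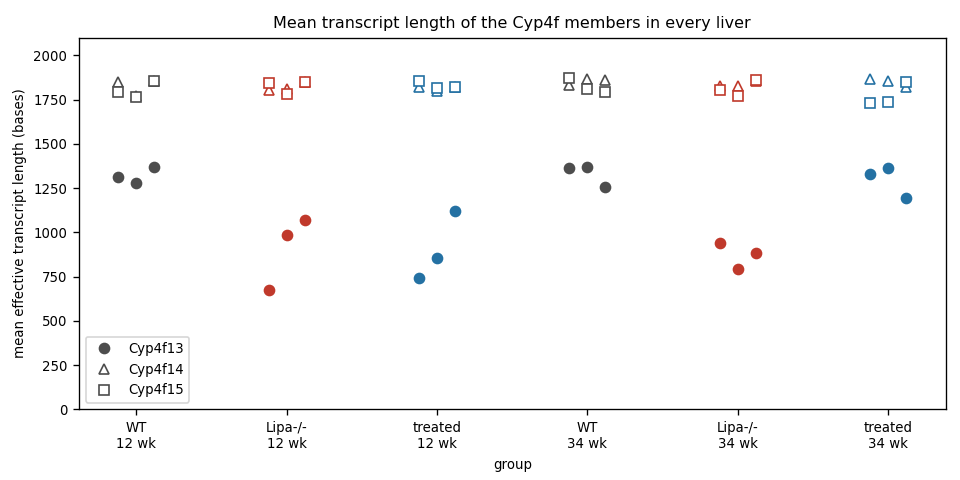
Mean effective transcript length in bases of Cyp4f13 (filled circles), Cyp4f14 (triangles) and Cyp4f15 (squares) in every liver, by group and weeks post-injection. Cyp4f13 lies at 677 to 1067 bases in untreated Lipa-/- livers of both times and at 1253 to 1367 bases in WT livers, whereas the other genes stay at 1732 bases or more.

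The second question was what the vector changed. Against untreated Lipa-/- livers, 6 of the 10 members were higher in rAAV8-treated livers at 12 weeks, against 16.2% of all tested genes, and 9 of 10 at 34 weeks, against 12.8%. None was lower. The untreated Lipa-/- livers are the same samples as in the comparison with WT, so the 2 comparisons are not independent. At 34 weeks Cyp4a31 alone stood lower in treated livers, with a log2 difference of -0.95 ± 0.56 that was not called (adjusted p = 0.194). Leaving out mouse 4, or treated mouse 12, left the count at 9.

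Cyp4a12a stood at 201, 283 and 84.8 CPM in the treated livers at 34 weeks and at 11.8, 87.2 and 146 CPM at 12 weeks. The log2 difference from untreated livers was 4.82 ± 0.95 at 12 weeks (adjusted p = 6.09e-04), and at 34 weeks the untreated livers held the 3 reads given above. Cyp4a12b stood at 107, 102 and 48.8 CPM at 34 weeks and at 3.60, 22.3 and 50.2 CPM at 12 weeks, 9.30 ± 1.01 and 4.34 ± 0.77 above untreated livers on the log2 scale (adjusted p = 3.06e-06 and 2.54e-04). Every treated liver lay above every untreated liver for both genes, and how many of all tested genes lay apart in this way was not counted.

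Cyp4a14 stood at 4.76, 40.6 and 6.23 CPM in treated livers at 34 weeks, 7.27 ± 1.72 above untreated livers on the log2 scale (adjusted p = 0.00276). At 12 weeks treated mouse 10 held 0 reads, mouse 11 25.5 CPM and mouse 12 4.37 CPM. Its call at 12 weeks rested on mouse 11: the log2 difference was 5.16 ± 1.53 (adjusted p = 0.00957) with all livers and 3.00 (adjusted p = 0.114) without that mouse. Cyp4a10 stood at 0.680, 28.9 and 19.1 CPM at 12 weeks, overlapping the untreated livers (adjusted p = 0.261), and at 44.1, 83.8 and 28.5 CPM at 34 weeks, 5.26 ± 1.00 above them (adjusted p = 4.68e-04).

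Cyp4f14 stood at 120, 221 and 203 CPM in treated livers at 12 weeks and at 257, 268 and 263 CPM at 34 weeks, 1.15 ± 0.25 and 3.37 ± 0.27 above untreated livers on the log2 scale (adjusted p = 0.00120 and 3.42e-07). Cyp4v3 stood at 367, 290 and 458 CPM at 12 weeks and at 362, 394 and 251 CPM at 34 weeks, 1.53 ± 0.23 and 1.98 ± 0.23 above them (adjusted p = 6.36e-05 and 6.14e-06). Cyp4a32 was called higher by 1.61 ± 0.61 (adjusted p = 0.0351) at 12 weeks, a call lost without Lipa-/- mouse 5 (1.59) or 9 (1.35) or treated mouse 11 (1.45) or 12 (1.11), and by 3.10 ± 0.65 (adjusted p = 0.00107) at 34 weeks. Cyp4f15 and Cyp4f13 were called higher at 34 weeks, by 1.85 ± 0.26 and 1.31 ± 0.35 (adjusted p = 2.91e-05 and 0.00704), the latter falling to 0.73 (adjusted p = 0.115) on counts corrected for transcript length. Without treated mouse 11 the count at 12 weeks was 3, with Cyp4f14 at 0.98, under the fold threshold. With total counts in place of TMM, 3 members were called at 12 weeks; this scaling moved the median of all tested genes to -1.05 in that comparison, from -0.19 under TMM, and Cyp4f14 and Cyp4v3 then differed by 0.31 and 0.64. In limma on log2 TPM the difference of Cyp4f14 at 12 weeks was -0.0062 (adjusted p = 0.987), with the median of all genes at -0.67.

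**Figure D3:**
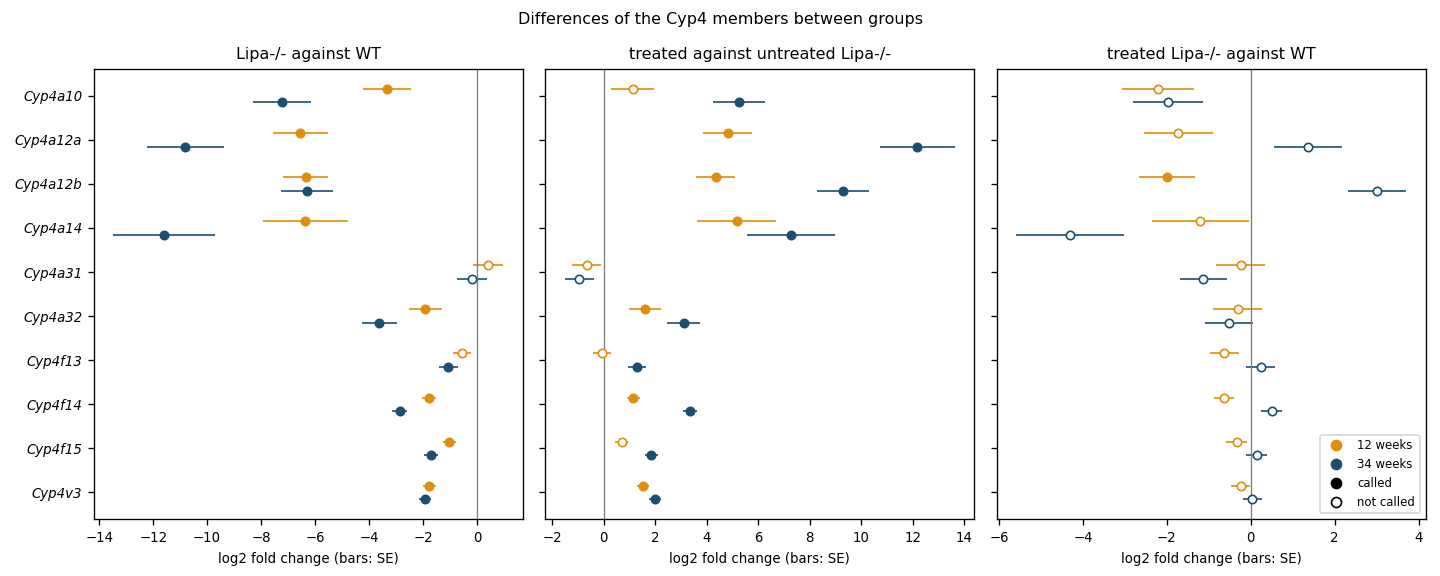
Log2 fold change of each member (points, with SE bars) at both times, for Lipa-/- against WT, treated against untreated Lipa-/- and treated Lipa-/- against WT; filled points passed the test. The first panel has filled points on the negative side for 8 members at 12 weeks and 9 at 34 weeks, the middle panel on the positive side for 6 and 9, and the last panel has 1 filled point, Cyp4a12b at 12 weeks.

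Against WT livers, 1 member was lower in treated livers at 12 weeks, against 12% of all tested genes. That member, Cyp4a12b, differed by -2.00 ± 0.67 (adjusted p = 0.0285) and was not called without treated mouse 10 (-1.56, adjusted p = 0.0669), treated mouse 11 (-1.92, adjusted p = 0.0767) or WT mouse 3 (-1.71, adjusted p = 0.101). No treated liver reached the lowest WT liver for Cyp4a12a, Cyp4a12b or Cyp4f14 at 12 weeks. At 34 weeks no member was called in edgeR in either direction, while 0.131% of all genes were called higher and 0.0895% lower; 3 members had an unadjusted p under 0.05, and DESeq2 called 1 higher. Some members did not overlap between these livers. How many of all tested genes lay apart in this way was counted at neither time. Cyp4a14 in treated livers was 4.76 to 40.6 CPM against 143 to 522 CPM in WT (log2 fold change -4.31 ± 1.28, adjusted p = 0.418). Cyp4a10 stood at 28.5 to 83.8 against 107 to 306 CPM, and Cyp4a31 at 0.813 to 1.48 against 1.71 to 3.35 CPM. Above WT were Cyp4a12b, at 48.8 to 107 against 8.83 to 12.6 CPM (3.01 ± 0.70, adjusted p = 0.144), and Cyp4f14, at 257 to 268 against 179 to 192 CPM.

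A comparison of these differences between the times asked whether treated livers moved relative to WT. The log2 difference of treated from WT livers was shifted upwards at 34 relative to 12 weeks for 2 members. In that direction 8.58% of all tested genes were called, and in either direction 2675 of 14533. The share of members called in either direction was near that of all genes. Both called members went from below to above 0. For Cyp4a12b the change of the difference was 5.01 ± 0.96 (adjusted p = 0.0233) and for Cyp4f14 1.13 ± 0.35 (adjusted p = 0.0367). Cyp4f14 went from 282 ± 10.0 to 187 ± 6.86 CPM (mean ± SD) in WT livers and from 181 ± 54.2 to 263 ± 5.56 CPM in treated livers. For the summed reads of Cyp4a12a and Cyp4a12b the change was 3.51 ± 1.11 (adjusted p = 0.0400). Cyp4a12b was not called without WT mouse 3 of 12 weeks (4.72, adjusted p = 0.0620) or treated mouse 9 of 34 weeks (4.82, adjusted p = 0.0623). Cyp4f14 was not called without treated mouse 10 or WT mouse 1 or 3 of 12 weeks, nor without treated mouse 9 or 11 or WT mouse 1 of 34 weeks (0.98 to 1.16). In a fit of these groups alone neither gene was called.

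No member passed the edgeR test of whether the difference between Lipa-/- and WT livers changed between the times, where 0.0413% of all genes were called lower. Of the members 4 had an unadjusted p under 0.05, and DESeq2 and limma called 0. Within Lipa-/- livers, Cyp4f14 was lower at 34 than at 12 weeks by 1.68 ± 0.25 on the log2 scale (adjusted p = 0.00773), against 0.461% of all tested genes called lower. It was not called without mouse 4 (-1.57, adjusted p = 0.0791) or mouse 5 of 34 weeks (adjusted p = 0.0676). In treated livers Cyp4a12b alone was higher at 34 weeks, by 1.75 ± 0.66 (adjusted p = 0.0402), against 17.5% of all tested genes, and it was not called without treated mouse 10 (1.28) or 11 (1.66) of 12 weeks or 9 (1.56) or 11 (1.61) of 34 weeks.

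Between the times no member passed the edgeR test in WT livers, where 0.22% of all genes were called higher and 0.103% lower. Cyp4a14 was higher in each WT liver of 34 weeks than in each of 12 weeks (log2 difference 3.86 ± 1.25, adjusted p = 0.296), Cyp4a12a lower in each (-1.88 ± 0.83, adjusted p = 0.576) and Cyp4a12b lower in each (-3.26 ± 0.70, adjusted p = 0.0627), and 4 members had an unadjusted p under 0.05. Cyp4f14 and Cyp4v3 were also lower in each (-0.60 ± 0.25 and -0.43 ± 0.22, adjusted p = 0.531 and 0.721). How many of all tested genes lay apart in this way was not counted. DESeq2 called Cyp4a12b lower (adjusted p = 5.61e-04). Beside this, other sex-biased genes differed between the same livers. Hsd3b5, a male-biased steroid enzyme, stood at 429, 487 and 334 CPM in the WT livers of 12 weeks and at 167, 2.05 and 9.50 CPM in those of 34 weeks (adjusted p = 0.377), and of the 12 male-biased genes listed 3 were called lower and none higher. Acot3, a peroxisomal thioesterase, was called higher (3.42 ± 0.68, adjusted p = 0.0398). All 6 WT libraries held reads of Ddx3y and Eif2s3y. The part of the sex-biased genes in the members' values was not tested.

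Per length, the order of the members differed between groups. In WT livers of 12 weeks Cyp4f14 led with 132 ± 16.1 TPM, followed by Cyp4a12a with 108 ± 42.5 and Cyp4v3 with 105 ± 17.4 TPM, and these 3 overlapped. In WT livers of 34 weeks Cyp4a14 led with 164 ± 108 TPM, followed by Cyp4a10 with 117 ± 71.1 and Cyp4f14 with 103 ± 26.2 TPM, again overlapping. In untreated Lipa-/- livers of 34 weeks Cyp4f13 led with 45.5 ± 9.13 TPM, followed by Cyp4v3 with 37.8 ± 2.40 and Cyp4f15 with 27.3 ± 5.64 TPM; the first 2 overlapped, and Cyp4v3 lay above Cyp4f15 in all livers. Treated livers of 34 weeks were led by Cyp4f14 with 156 ± 12.1 TPM, above Cyp4v3 with 103 ± 24.0 TPM in every mouse. The 6 Cyp4a members made up 28.7 to 60.6% of the summed TPM of the family in WT livers, 2.14 to 7.29% in untreated Lipa-/- livers, and 4.30 to 39.5% in treated livers, of which treated mouse 10 gave the lowest share and the others 21.2% or more. What remained in untreated Lipa-/- livers was nearly all Cyp4f and Cyp4v3 transcript.

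**Figure D4:**
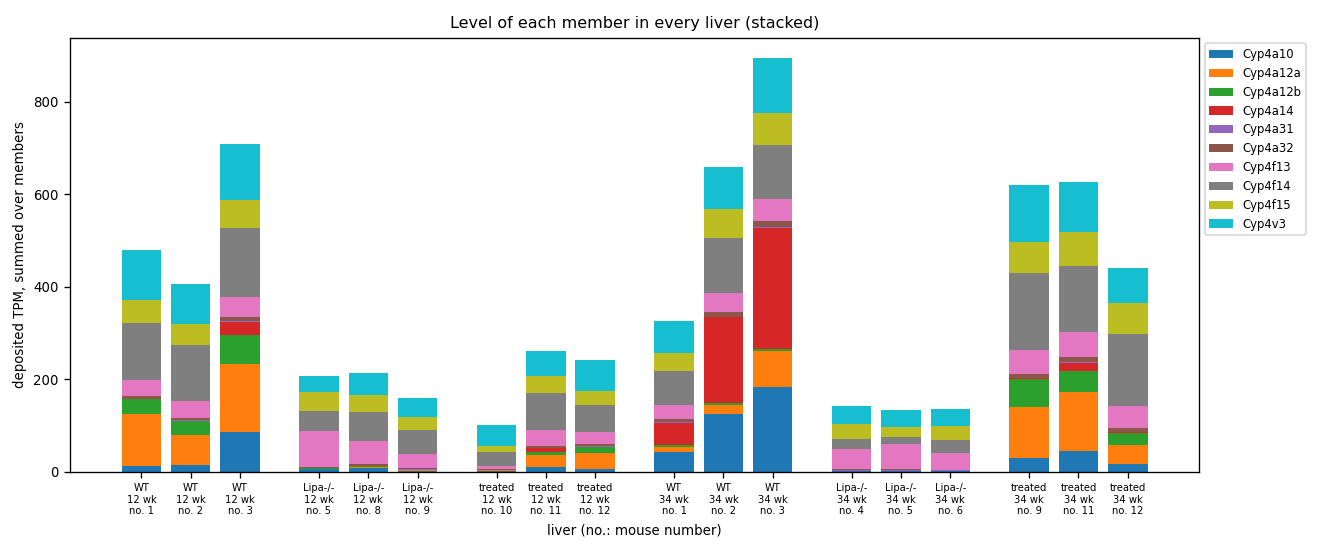
Deposited TPM of the 10 members stacked for each liver, with groups by genotype, treatment and weeks post-injection. The stacks reach 326 to 894 TPM in WT, 132 to 214 TPM in untreated Lipa-/- and 101 to 627 TPM in treated livers, and the Cyp4a segments at the bottom shrink to at most 15.6 TPM in untreated Lipa-/- livers.

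The other Cyp4 genes did not move as a block. Of 6 tested, 2 rose and 2 fell at both times in Lipa-/- livers, against 20.2% and 9.06% of all tested genes at 12 weeks and 20.5% and 15.7% at 34 weeks. Cyp4f18, known as a leukotriene B4 omega-hydroxylase of neutrophils, rose from 0.306 ± 0.0343 to 14.7 ± 8.03 CPM at 12 weeks and from 0.418 ± 0.0581 to 10.1 ± 1.15 CPM at 34 weeks (log2 fold change 5.56 ± 0.48 and 4.56 ± 0.45, adjusted p = 2.71e-07 and 7.40e-07). Cyp4f16 rose by 3.45 ± 0.48 and 2.73 ± 0.46 (adjusted p = 3.03e-05 and 1.31e-04). Cyp4b1 fell by 1.54 ± 0.32 and 2.19 ± 0.33 (adjusted p = 0.00121 and 4.42e-05), and Cyp4f17 by 1.01 ± 0.22 and 1.09 ± 0.22 (adjusted p = 0.00135 and 5.36e-04). Cyp4f39 and Cyp4x1 stayed under 1 CPM and were not called. Neutrophil markers rose beside Cyp4f18, with 7 of 7 called higher at 12 weeks and 5 of 7 at 34 weeks and summed levels of 460 to 5774 TPM in Lipa-/- livers against 2.66 to 14.7 TPM in WT; 3 of the 7 were at 0 in the WT livers of 12 weeks. Their part in the rise was not tested. The leukotriene synthesis genes Alox5 and Alox5ap were called higher at both times, by 4.65 and 4.84 at 12 weeks and by 3.97 and 4.17 at 34 weeks.

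Genes that work before and after the omega-hydroxylases were taken from lists chosen with earlier results known. Among all tested genes 9.06% were called lower at 12 weeks and 15.7% at 34 weeks. Of 8 tested alcohol and aldehyde dehydrogenases, 5 fell at 12 weeks and 8 at 34 weeks and none rose, with medians of -1.47 and -2.07. Adh4 fell by 2.34 ± 0.31 and 4.15 ± 0.34, and Aldh1a1 by 2.00 ± 0.32 and 3.72 ± 0.35 on the log2 scale. Of 13 peroxisomal genes of dicarboxylic acid uptake and shortening, 8 fell at 12 weeks and 12 at 34 weeks, with medians of -1.42 and -2.49. Nudt7, a coenzyme A hydrolase, fell from 984 ± 246 to 38.8 ± 7.62 CPM at 12 weeks and from 493 ± 325 to 12.6 ± 3.44 CPM at 34 weeks. Electron donors were mixed: Por stood at 83.7 ± 12.7 CPM in WT and rose to 200 ± 64.0 CPM in Lipa-/- livers at 12 weeks (1.26 ± 0.26, adjusted p = 0.00115), and was not called at 34 weeks (0.34 ± 0.26, adjusted p = 0.299), while Cyb5b fell at both times, by 1.82 ± 0.27 and 2.25 ± 0.27.

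PPARalpha itself was among the genes that fell. Ppara stood at 22.6 ± 8.49 CPM in WT and 8.45 ± 2.39 CPM in Lipa-/- livers at 12 weeks, and at 31.04 ± 6.30 against 7.87 ± 1.15 CPM at 34 weeks (-1.42 ± 0.35 and -1.98 ± 0.35, adjusted p = 0.00371 and 2.02e-04), and its partner Rxra was not called (-0.58 and -0.66, adjusted p = 0.234 and 0.155). Of 18 other PPARalpha targets, 7 fell at 12 weeks and 14 at 34 weeks, with none called higher. The shares of all tested genes, for this and the next lists, were 9.06% lower and 20.2% higher at 12 weeks. At 34 weeks they were 15.7% and 20.5%. Fabp1, which carries fatty acids in the cytosol, fell by 2.67 ± 0.35 and 4.22 ± 0.38, and the thioesterase Acot1 by 4.27 ± 0.67 and 4.63 ± 0.68. Of the 12 male-biased genes, 12 fell at 12 weeks and 10 at 34 weeks. Elovl3, a fatty acid elongase, went from 892 ± 108 to 0.289 ± 0.158 CPM at 12 weeks and from 397 ± 66.4 to 0.305 ± 0.180 CPM at 34 weeks. Of 12 genes of the growth hormone and androgen axis, 1 was called higher and 3 lower at 12 weeks and 2 higher and 4 lower at 34 weeks. The growth hormone receptor Ghr changed by -1.87 ± 0.23 and -2.54 ± 0.24, whereas Socs3, a cytokine signalling inhibitor, was higher by 2.91 ± 0.68 and 2.30 ± 0.66, and Socs2, which growth hormone induces, was called at 34 weeks alone (2.59 ± 0.60). Of the 11 tested female-biased genes, 4 were called higher and 2 lower at 12 weeks and 3 higher and 5 lower at 34 weeks. Without mouse 4 the counts at 34 weeks were 13 PPARalpha targets and 10 male-biased genes lower, and 3 female-biased genes higher and 3 lower.

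**Figure D5:**
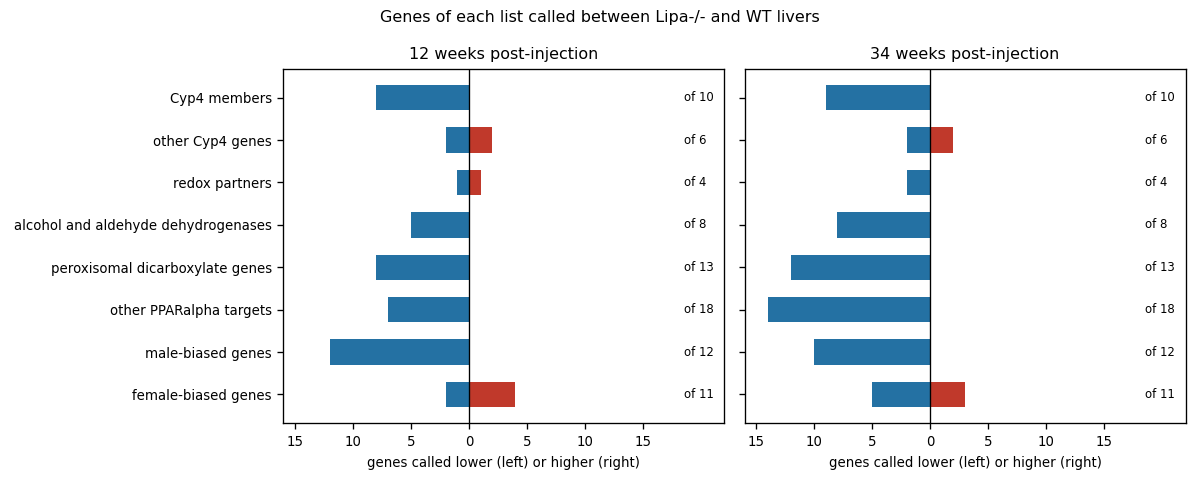
Number of genes of each list called lower (left) or higher (right) in untreated Lipa-/- against WT livers at either time point, with the number tested at the right edge. The Cyp4 members have 8 and 9 genes on the left and none on the right, whereas the other Cyp4 genes have 2 on each side at both times.

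Hepatocyte markers moved less than the members, with 1 of 10 called lower at 12 weeks (median -0.41) and 4 of 10 at 34 weeks (median -0.81); Ttr fell by 1.02 and 1.97. On the TPM scale their sum was higher in Lipa-/- livers, 91188 to 118200 TPM against 54100 to 69169 TPM in WT. Without mouse 4, 3 of the 10 were lower and 2 higher at 34 weeks. Markers of other cells were also called, in both directions. Among all tested genes 9.06% were called lower and 20.2% higher at 12 weeks, and 15.7% and 20.5% at 34 weeks. The hepatocyte markers called lower at 12 weeks and the endothelial markers called higher lay near these shares. The lymphocyte markers called higher at 12 weeks were also not far from them. Macrophage markers were called higher for 9 of 10 genes at 12 weeks and 7 of 10 at 34 weeks, with 1 lower at 34 weeks, Clec4f (-2.73). Stellate cell markers were higher for 5 and 6 of 8 and lower for 1 and 2, among them Lrat (-1.77 and -2.63), and cholangiocyte markers were higher for 4 and 6 of 6. Endothelial markers had 1 of 6 higher and 2 lower at both times, the latter being Clec4g (-2.17 and -2.70) and Kdr (-2.09 and -1.38). Lymphocyte markers had 2 of 7 higher at 12 weeks, and 3 higher and 1 lower at 34 weeks (1 higher and 2 lower without mouse 4). Pericentral and periportal hepatocyte genes both held genes that fell, among them Cyp1a2 (-1.80 and -3.24) and Cyp2f2 (-3.56 and -5.41). The part of the cell make-up in the members' values was not tested.

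Genes other than the members with the profile nearest to 4 of the members were listed as a description. The measure was the root mean square difference of centred log2 CPM over the 18 livers, among 12589 genes of at least 1 CPM on average. Nearest to Cyp4v3 was Acadsb, a mitochondrial acyl-CoA dehydrogenase, at 0.172 log2 units, then Atat1 and Oxnad1 at 0.209 and 0.211. Acadsb stood at 142 to 154 CPM in WT and 37.3 to 49.1 CPM in Lipa-/- livers at 12 weeks. Nearest to Cyp4f14 were Serpina1d, the bile acid transporter Slc10a1 and Clcn2 at 0.294 to 0.338. Cyp4a12a was nearest to the carboxylesterases Ces3b and Ces1f and to Car3, at 1.60 to 1.64, and Cyp4a14 to Aqp4, Sema5b and Acot3, at 2.07 to 2.35. The difference was not scaled to the spread of a member. The SD over the livers was 4.20 log2 units for Cyp4a12a and 4.05 for Cyp4a14, against 1.28 for Cyp4f14 and 0.923 for Cyp4v3. Acot3 stood at 9.08, 15.6 and 25.2 CPM in the WT livers of 34 weeks, in which Cyp4a14 was highest, and at 2.57 CPM or less in all other livers.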

How the data were processed

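Poly(A) RNA of 18 whole livers was sequenced in 6 groups of 3 mice. The authors quantified transcripts with Salmon and summarised them per gene on GRCm39; the submitters' processing notes name R 4.3.0 and DESeq2 1.40.1. The deposited tables hold estimated counts, TPM and mean effective transcript length. Estimated counts (19.4% not whole) were rounded. Genes with over 100 reads in all were tested with the edgeR 4.0.16 quasi-likelihood test (R 4.3.3, TMM factors, 1 fit of 6 group means, 11 contrasts, Benjamini-Hochberg adjustment); genes were called at an adjusted p under 0.05 with a fold change beyond 1 log2 unit either way. TPM served for levels between genes. DESeq2 1.42.0, limma 3.58.1 on log2(TPM + 1), other scalings and filters, length offsets, summed near copies and left-out mice were alternatives. The scripts were tested on simulated data. The transcript length test, the Poisson intervals and the list counts without mouse 4 were chosen after values were seen. Exact permutation of 3 against 3 mice cannot go below p = 0.1. A table of the authors' own fold changes and p-values was not used. Members and lists were chosen with earlier results of these data known. Named genes were the members, Lipa, human LIPA, all tested other Cyp4 genes, Ppara, Rxra, Por, at most 2 genes called higher and 2 called lower with the largest changes per list, and the 3 nearest profiles of 4 members.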

Additional observations from a re-analysis of the deposited data

Results flagged for a closer look

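In an edgeR test of the difference between rAAV8-treated Lipa-/- and WT livers, 2 of the 10 members changed between 12 and 34 weeks. In that test 8.58% of all tested genes were called higher and 9.83% lower, 2675 of 14533 in either direction. The share of members called was near that of all genes, so the count does not set the members apart. For Cyp4a12b the log2 difference rose by 5.01 ± 0.96 (adjusted p = 0.0233), from -2.00 at 12 weeks to 3.01 at 34 weeks. WT livers went from 78.3 to 139 CPM down to 8.83 to 12.6 CPM, and treated livers from 3.60 to 50.2 CPM up to 48.8 to 107 CPM. For Cyp4f14 it rose by 1.13 ± 0.35 (adjusted p = 0.0367), from -0.64 to 0.50. In a fit of these groups alone neither was called, and leaving out 1 mouse gave 0 to 3 members, with both calls lost without WT mouse 3 of 12 weeks or treated mouse 9 of 34 weeks, and that of Cyp4f14 without any of 6 mice. Time and study code cannot be told apart in either value.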

How the results depend on the processing

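Counts of members called between Lipa-/- and WT livers at 34 weeks (8 to 9) and between treated and untreated livers at 34 weeks (9 throughout) held when any mouse was left out, and the counts against WT at 12 weeks went from 5 to 8. Treated against untreated livers at 12 weeks gave 3 to 6 members without 1 mouse, 3 under total counts and 3 in limma on log2 TPM, of which 1 was lower. Treated against WT livers at 12 weeks (1 in edgeR) gave 2 in DESeq2, without the filter, with upper quartile scaling and with length offsets, 3 under total counts, 5 in limma, 0 in a fit of these groups alone, and 0 to 2 without 1 mouse; at 34 weeks (0) DESeq2, no filter, limma and the groups alone gave 1, and leaving out a mouse 0. WT livers over time (0) gave 1 in DESeq2, without the filter, and in the groups alone, 2 in limma, and 0 without any mouse. Lipa-/- livers over time (1) gave 3 in DESeq2, 2 without the filter, 0 under total counts and in the groups alone, and 0 to 2 without 1 mouse. Treated livers over time (1) gave 4 under total counts, 7 in limma, 0 in the groups alone and 0 to 2 without 1 mouse. The changed difference of treated and WT livers (2) gave 4 in limma, 0 in the groups alone and 0 to 3 without 1 mouse. The cause was not tested.

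Mouse numbers name different animals, and deviations of WT livers with the same number correlated at 0.076, -0.24 and 0.46, so the numbers do not pair them. With a replicate block WT livers over time gave 1 member and treated livers 0.

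Among the single-member results examined, signs reversed for 3 members. Cyp4a31 in Lipa-/- against WT livers was -0.18 with length offsets, -2.86 in the summed trio and -0.15 to 1.01 without 1 mouse at 12 weeks, and 0.15 in limma, 0.43 under total counts and -0.40 to 0.043 without 1 mouse at 34 weeks. Cyp4f13 was 0.42 in limma and 0.045 with length offsets at 12 weeks and 0.19 in limma at 34 weeks. Cyp4f14 between treated and untreated livers at 12 weeks, called at 1.15 in edgeR, was -0.0062 in limma on log2 TPM. Of 704 alternative values of single members, 609 kept their direction and side of the threshold. The 704 values belong to 44 results. These were taken because the log2 fold change exceeded 1 in size with a low adjusted p, or for Cyp4f13 and Cyp4a31 in Lipa-/- against WT livers. Smaller differences of the members were left out, so the count does not cover them. Levels per length kept 56 of 60 ranks as CPM per kilobase. Members with under 10 reads per library are limited by depth. Under total counts the median of all genes in Lipa-/- against WT livers became 0.49 at 12 weeks and 0.60 at 34 weeks. Higher genes then made up 87.2% of the calls at 12 weeks (69.1% under TMM) and 81.9% at 34 weeks (56.6% under TMM), and 6 members fell at 12 weeks, as in limma.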
